A study of Homo sapiens with 4 samples.

Results

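The HOX clusters were described in peak lists of acetylated lysine 27 of histone H3 (H3K27ac), a histone mark of active promoters and enhancers. All 39 protein-coding genes of GENCODE release 44 named HOXA, HOXB, HOXC or HOXD with a number were taken as members, out of 19970 protein-coding genes. HOXA held 11 of them, HOXB 10, HOXC 9 and HOXD 9. A promoter was the 1 kb either side of the start site of the gene's canonical transcript, and it was called marked where a peak overlapped it. Each cluster was also followed base by base from 20 kb before its first HOX gene to 20 kb after its last.

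HOX genes encode homeodomain transcription factors that give cells their position along the body axis, and their order on the chromosome follows the order in which they are switched on in the embryo, with low paralog numbers anterior and high numbers posterior. Where they are silent, the clusters are classically covered by Polycomb-deposited methylation of the same lysine 27, which cannot carry acetyl and methyl groups together. CTCF, a DNA-binding insulator protein, is known to divide silent from active stretches of HOX clusters, and HOX proteins bind DNA with PBX, MEIS and PKNOX partners of the TALE family.

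H3K27ac chromatin immunoprecipitation and sequencing had been run on MDA-MB-231 and Hs578T, both established human cell lines of triple-negative breast cancer, with 2 replicates each and hg38 as the genome build. By the labels, every sample had the same treatment: culture in DMEM with 10% FBS, 8 h of starvation in optimem, the cytokine TWEAK at 10 ng/ml for 48 h with fresh TWEAK given midway, and a washout of 72 h. No untreated sample and no sample without washout was analysed here, so the values describe these lines after washout and no effect of TWEAK can be read from them. The study's own text gives another washout time than the labels, and which applies to these libraries could not be settled.

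The list of MDA-MB-231 replicate 1 stood apart, with 209 peaks over 0.113 Mb where the other lists held 43353 (the second MDA-MB-231 replicate), 46330 and 44920 (Hs578T). It held no peak in any HOX cluster window and marked 0.0601% of all protein-coding promoters, so it carried almost no information on the HOX genes. The 3 large lists covered 81.8, 90.7 and 83.9 Mb, and no reads were used, so depth is unknown. Genome-wide the Jaccard index, the bases shared by a pair of lists over the bases in either, was 0.780 between the Hs578T replicates and 0.770 and 0.759 between MDA-MB-231 replicate 2 and each of them, so the pair within Hs578T was only slightly more alike than the pairs between lines. Promoters of 6 of 6 mesenchymal markers, AXL and CD44 among them, were marked in each large list, as were KRT8 and KRT18 of the 9 luminal and epithelial markers. EPCAM was marked in MDA-MB-231 replicate 2 (5.04-fold) and Hs578T replicate 1 (3.36-fold), whereas ESR1, PGR, GATA3, FOXA1, ESRP1 and CDH1 were marked in none. None of 3 immune or 2 adipocyte markers was marked, and of 2 endothelial markers PECAM1 was marked at 14.3-fold in MDA-MB-231 replicate 2 and at 2.82-fold in Hs578T replicate 1 only.

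Few HOX promoters carried the mark. MDA-MB-231 replicate 2 marked 7 of 39 (17.9%, 95% Wilson interval 8.98 to 32.7%), against 58.1% of all protein-coding promoters. The Hs578T replicates each marked 6 of 39 (15.4%, 7.25 to 29.7%), against 58.2% and 56.4%. MDA-MB-231 replicate 1 marked 0 of 39, with an upper Wilson bound of 8.97%. The intervals cover counting only, and neighbouring HOX genes are not independent of each other. In at least 2 lists, 6 HOX promoters (15.4%) were marked, against 57.7% of all protein-coding promoters. Leaving out MDA-MB-231 replicate 1, which marked 0 of 39, could not change that count.

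**Figure D1:**
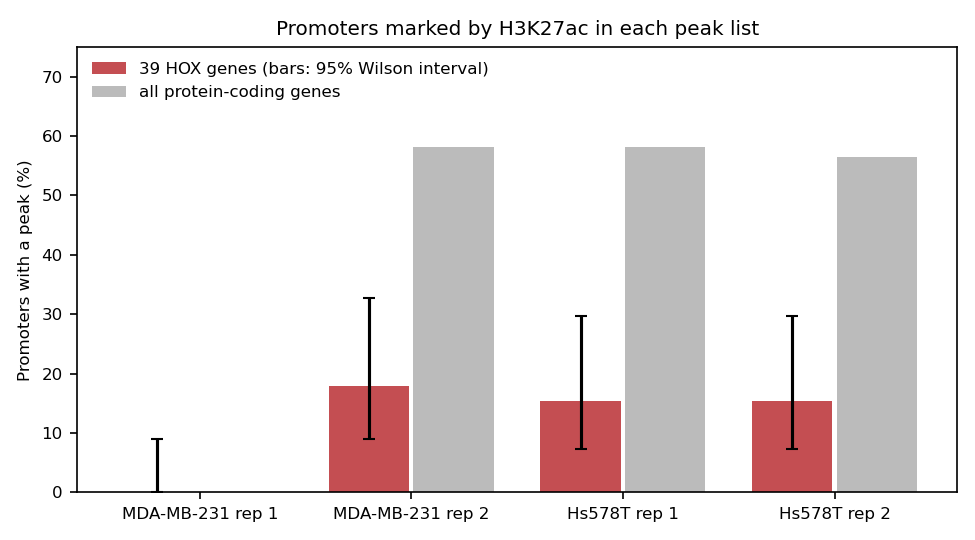
Share of promoters with an H3K27ac peak (percent) in each of the 4 peak lists, for the 39 HOX genes (red bars, with 95% Wilson intervals) and for all 19970 protein-coding genes (grey bars). In the 3 large lists the HOX share lay between 15.4 and 17.9% and the share of all genes between 56.4 and 58.2%, above the upper end of each HOX interval; MDA-MB-231 replicate 1 was near 0 for both.

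The 6 marked genes were the same in all 3 large lists: HOXB5, HOXB6, HOXB9, HOXC5, HOXD1 and HOXD4. HOXA13 was the only further gene, marked in MDA-MB-231 replicate 2 by a peak of 289 bp at 2.70-fold, low in that list. By cluster, 0 of 11 HOXA, 3 of 10 HOXB, 1 of 9 HOXC and 2 of 9 HOXD promoters were marked in at least 2 lists. By paralog number, they were 1 of 8 genes of groups 1 to 3, 4 of 15 of groups 4 to 8 and 1 of 16 of the posterior groups 9 to 13. These counts are too small to say that clusters or groups differ. Over the 2 lists of a line, the mean was 3.5 ± 4.95 marked HOX promoters in MDA-MB-231 and 6 ± 0 in Hs578T (SD, n = 2). The MDA-MB-231 mean joins 7 in replicate 2 with 0 in replicate 1, whose list held 209 peaks in all. It therefore does not place that line below Hs578T. No test was made between the lines, because the smallest two-sided p of an exact permutation over 2 libraries a line is 0.333.

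HOXB9, a posterior gene that acts with its paralogs in mammary gland development, had the highest promoter value. Its peak stood 11.7-fold over background in MDA-MB-231 replicate 2, 9.42-fold in Hs578T replicate 1 and 5.89-fold in Hs578T replicate 2, and it covered 1782, 1883 and 2001 bases of the promoter window. Fold enrichment here is the peak caller's ratio of signal to local background, and folds were compared between lists only through ranks. HOXB6 was next in that cluster, at 5.28-, 4.72- and 4.43-fold in the same order of lists, with 1075 to 1567 bases covered. HOXB5, its neighbour, was weakly marked at 3.19-, 2.72- and 2.97-fold over 330 to 875 bases.

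In HOXD, HOXD4 stood at 6.68-, 6.63- and 4.90-fold in MDA-MB-231 replicate 2 and the Hs578T replicates 1 and 2. HOXD1, the most anterior member, stood at 4.12-, 4.92- and 3.38-fold over 1859, 1781 and 1154 bases of its window. HOXC5 stood at 3.71-, 3.58- and 3.49-fold. No HOX gene was marked in both Hs578T lists and absent from MDA-MB-231 replicate 2.

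Marking did not always mean that the start site itself was inside the peak. The start sites of HOXB5, HOXB6, HOXB9 and HOXD1 lay in a peak in each large list. The HOXD4 peak began 55, 56 and 127 bp downstream of the start site and ran over the gene body. The HOXC5 peak likewise began 127, 65 and 52 bp downstream, towards the gene that encodes miR-615. When any start site of a basic GENCODE transcript was allowed, HOXC4 and HOXC9 joined in all 3 large lists. That gave 8 of 39 in at least 2 lists, against 59.7% of all protein-coding genes. HOXB3 and HOXC6 joined in 1 list only, MDA-MB-231 replicate 2.

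The HOX promoters were not poor in CpG. Their median GC content was 59.4% (49.6 to 67.9%) against 56.0% over all genes, and their median ratio of observed to expected CpG was 0.698 against 0.637. Among promoters with GC and CpG at or above the lower quartiles of the HOX genes, a choice made after seeing the data, 2 of 23 HOX promoters (8.70%) and 73.6% of all such promoters were marked in at least 2 lists. The 6 marked HOX promoters had a median GC of 57.4% and CpG ratio of 0.636, the 33 others 59.5% and 0.708.

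Single genes went both ways: marked HOXD1 had a GC of 64.2% and a CpG ratio of 0.848. HOXB3, unmarked at its canonical start, had the lowest ratio of the 39, 0.254. The sequences of HOXD4, marked just past its start, and HOXD8, marked in no list, are shown, but not as typical of marked and unmarked genes. HOXD4 lies at a border, and HOXD8 is the next HOX gene on its unmarked side. Another shared region, at chr2:176140394-176141068 inside HOXD3, lies between them, so they do not face each other across 1 border. The 250 bases before the RefSeq start sites (GRCh38.p14, plus strand, CpG in capitals) held 4 CpG in HOXD4, at chr2:176151300-176151549, and 28 in HOXD8, at chr2:176129455-176129704. No base of either stretch lay in a peak of any list.
HOXD4 upstream: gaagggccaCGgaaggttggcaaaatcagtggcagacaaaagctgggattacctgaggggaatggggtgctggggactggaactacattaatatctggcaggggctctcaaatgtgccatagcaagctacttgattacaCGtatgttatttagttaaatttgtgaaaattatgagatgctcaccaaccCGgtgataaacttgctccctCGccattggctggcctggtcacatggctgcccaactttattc
HOXD8 upstream: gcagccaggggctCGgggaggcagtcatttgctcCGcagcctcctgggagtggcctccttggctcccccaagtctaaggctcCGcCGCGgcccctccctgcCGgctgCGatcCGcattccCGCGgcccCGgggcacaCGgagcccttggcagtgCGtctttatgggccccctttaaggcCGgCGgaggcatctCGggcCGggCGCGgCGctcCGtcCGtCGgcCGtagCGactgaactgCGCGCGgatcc

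Taken whole, with promoters included, the clusters were not empty of the mark. The 4 windows together spanned 683 kb and held 21, 20 and 20 peaks in MDA-MB-231 replicate 2 and the Hs578T replicates 1 and 2. They covered 23587, 24778 and 25935 bp, or 3.45, 3.63 and 3.80% of the windows, where the same lists covered 2.70, 2.99 and 2.77% of the genome. The genome share is a loose yardstick, because the longest window, HOXB, lies on densely covered chromosome 17. The same lists covered 5.13, 5.85 and 5.34% of that chromosome. In at least 2 lists, only HOXD was covered above the share of its own chromosome. MDA-MB-231 replicate 1 covered 0 bp, which gave line means of 11793.5 ± 16678.5 bp in MDA-MB-231 and 25356.5 ± 818 bp in Hs578T (SD, n = 2).

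The 4 clusters were covered unequally. In at least 2 lists, HOXA (chr7:27072993-27220091) had 1013 bp covered, or 0.689% of its window against 2.61% of chromosome 7. HOXB (chr17:48508526-48748750) had 10491 bp, 4.37% against 5.32% of chromosome 17, and HOXC (chr12:53918831-54076030) had 5025 bp, 3.20% against 3.49% of chromosome 12. HOXD (chr2:176072721-176210907) had 5859 bp, 4.24% against 2.56% of chromosome 2. HOXA was the lowest in each large list, with 1753, 1058 and 963 bp, and HOXB the highest, with 10363, 11658 and 14407 bp.

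**Figure D2:**
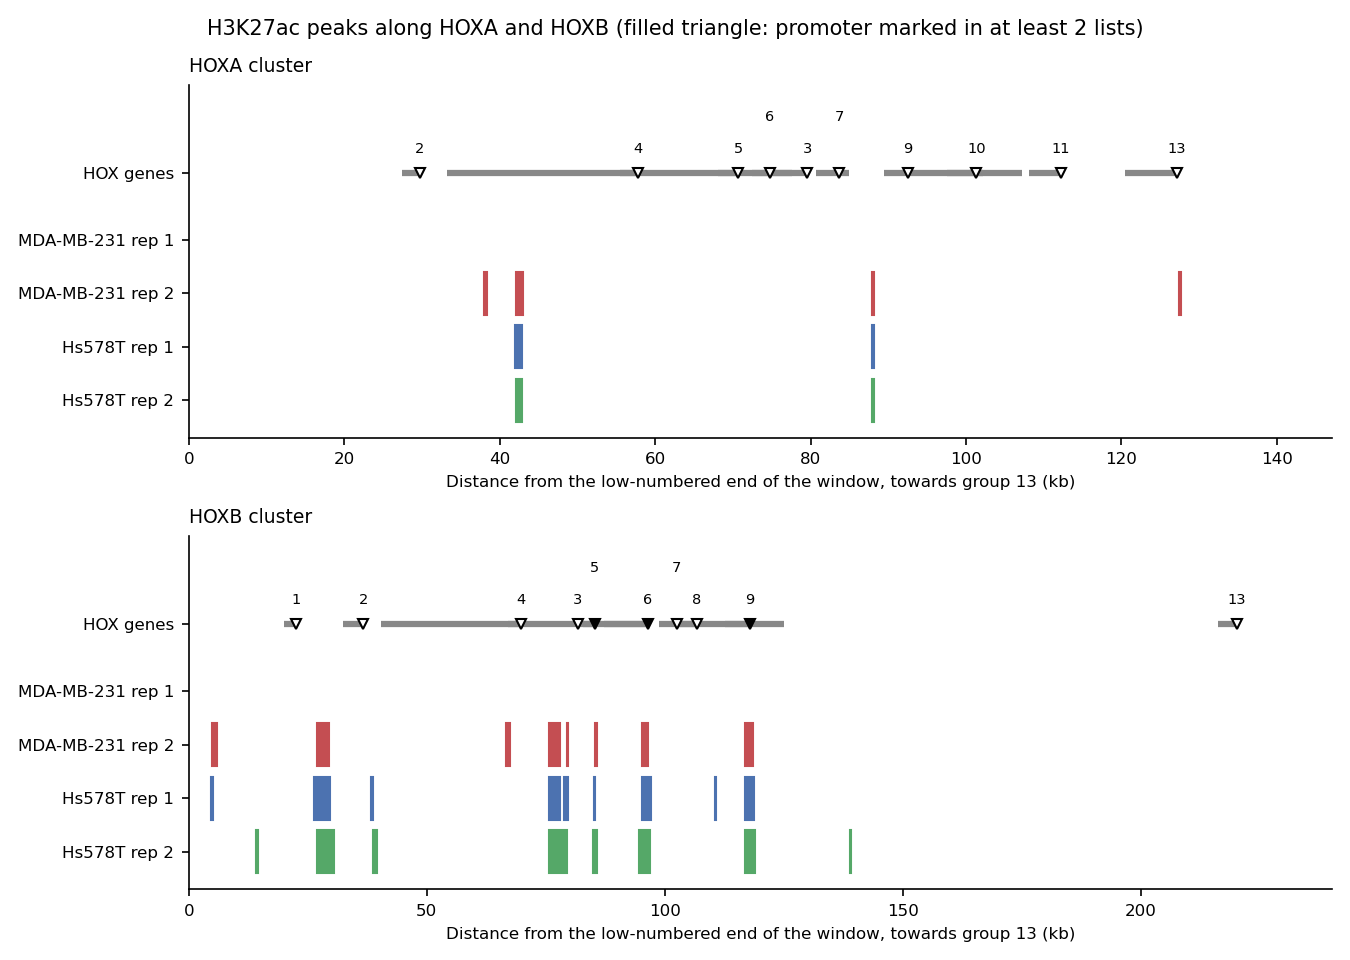
Peaks along the HOXA and HOXB clusters, with distance in kb from the low-numbered end of the window towards group 13 on the x axis and a row for each peak list (coloured blocks; blocks under 0.25 kb are drawn 0.25 kb wide). Grey bars are gene bodies and triangles start sites of the HOX genes reported here, filled where the promoter was marked in at least 2 lists. HOXA shows 2 peak regions shared by the 3 large lists and no filled triangle, and HOXB shows a run of shared regions up to HOXB9 and none from there to HOXB13 in more than 1 list.

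**Figure D3:**
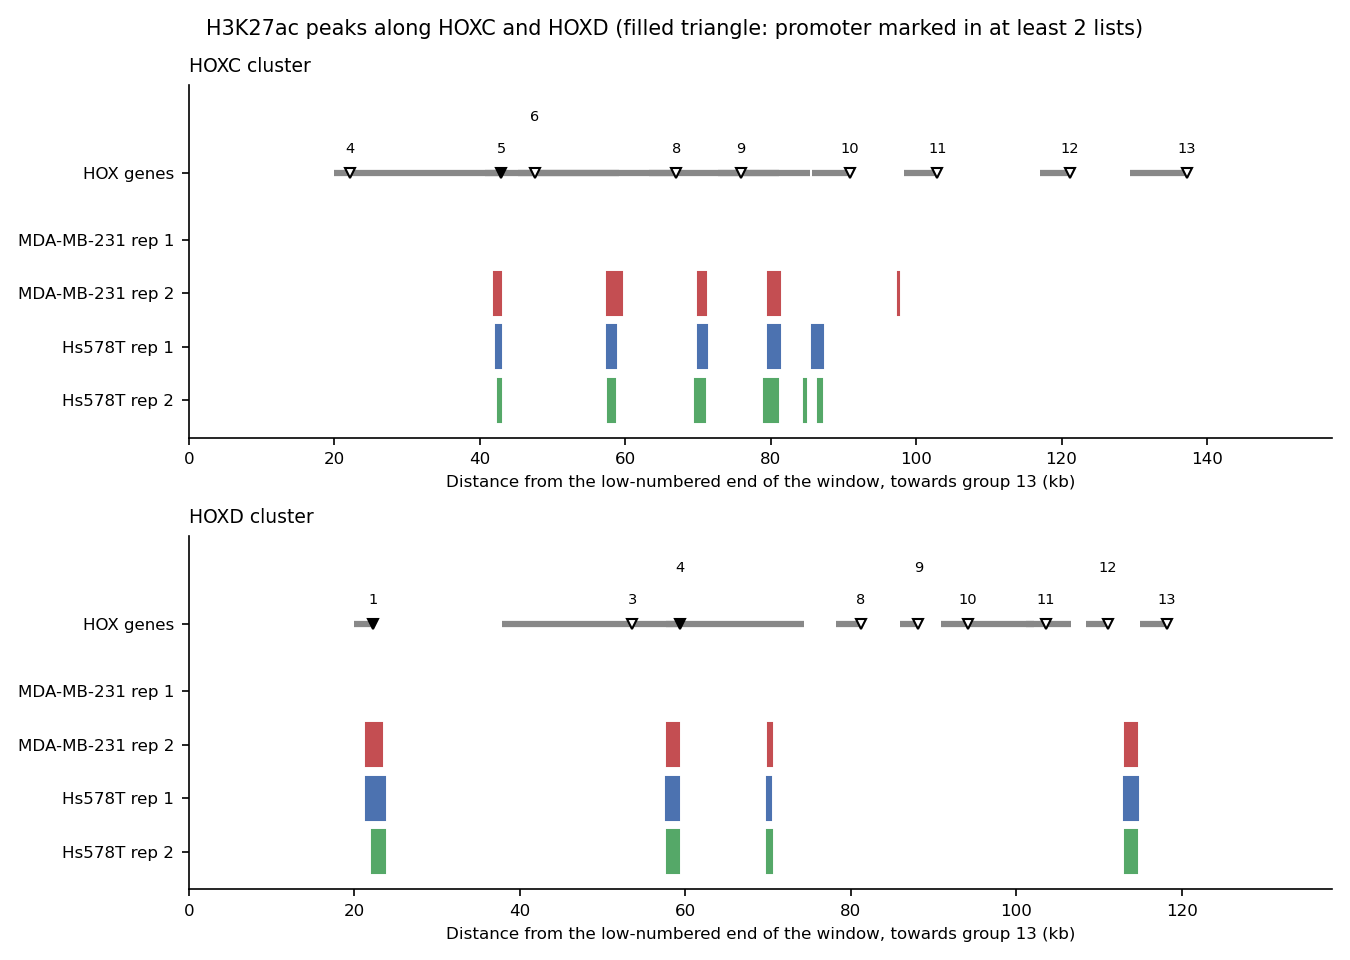
Peaks along the HOXC and HOXD clusters, with the same axes and symbols as the HOXA and HOXB map. HOXC shows shared regions from HOXC5 to the HOXC10 gene body, the last in the Hs578T lists only. No shared peak lies from the HOXC10 start site to HOXC13. HOXD shows 4 regions in each large list, at HOXD1, at HOXD4, inside the long HOXD3 gene and between HOXD12 and HOXD13.

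Joined over all lists, the peaks formed 26 regions, of which 15 were in all 3 large lists, 3 in 2 lists and 8 in 1 list. The 15 shared regions had a median width of 1717 bp and the 8 single ones of 293 bp. Of the 15, 4 held a canonical HOX start site and 6 any basic HOX start site, so 9 held none. Among those 9 were the regions of HOXC5 and HOXD4, whose peaks began within 127 bp of the canonical start in each large list. The Jaccard index inside the windows was 0.642 between the Hs578T replicates and 0.651 (Hs578T replicate 1) and 0.550 (replicate 2) against MDA-MB-231 replicate 2, lower than genome-wide for each pair, with the pair within Hs578T between the other two.

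The strongest region lay between HOXB1 and HOXB2 at chr17:48534783-48538992 and held no start site of any gene. It stood at 17.2-, 20.3- and 16.3-fold in MDA-MB-231 replicate 2 and the Hs578T replicates 1 and 2, at percentiles 92.4, 96.2 and 95.4 of its list's peaks by fold, with a GC content of 44.9%. It held 3 copies of TGACTCA, the site of AP-1, the JUN and FOS dimer. Of all 5 kb windows of the genome, 52.8% hold at least 1 copy on either strand. The share with 3 or more was not counted.

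The second strongest region, in HOXC at chr12:53994798-53996988, held the alternative start of HOXC9 and the start of the antisense RNA gene HOXC-AS2. It stood at 15.3-, 12.3- and 11.5-fold, while the canonical HOXC9 start was 3734, 3721 and 3173 bp from the nearest peak. In HOXD, a region between HOXD13 and HOXD12 at chr2:176096126-176097842 stood at 10.9-, 8.85- and 6.89-fold with neither promoter marked, the start site of HOXD12 being 1993, 1953 and 2072 bp away. Inside the long HOXB3 gene, a region at chr17:48584157-48588128 stood at 10.7-, 9.54- and 7.74-fold and was up to 3814 bp wide within a list.

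The alternative start of HOXC4 lay in a region of 5.56-, 5.58- and 5.62-fold, whereas the canonical HOXC4 start was 19749, 20093 and 20342 bp from a peak. RefSeq also places the start of HOXC5 there, 16162 bp before the GENCODE start used above. The 250 bases before that RefSeq start (GRCh38.p14, chr12:54016638-54016887, plus strand, CpG in capitals) lay wholly in the MDA-MB-231 replicate 2 peak and outside those of both Hs578T replicates.
HOXC5 RefSeq upstream: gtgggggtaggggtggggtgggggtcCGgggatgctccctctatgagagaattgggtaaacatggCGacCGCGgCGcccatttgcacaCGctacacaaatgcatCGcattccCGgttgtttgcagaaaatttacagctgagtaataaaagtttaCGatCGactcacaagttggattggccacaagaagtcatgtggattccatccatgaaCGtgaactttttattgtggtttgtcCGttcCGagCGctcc

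Most HOX peaks ranked below the middle of their list. Of the 21, 20 and 20 peaks, 6, 7 and 8 stood above the median fold of their list, and the median percentiles were 33.1, 44.7 and 35.6. HOXA had no strong peak: its 2 shared regions were inside HOXA3, at 4.19-, 4.54- and 4.91-fold, and between HOXA7 and HOXA9, at 4.12-, 3.21- and 3.99-fold over 284 bp.

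**Figure D4:**
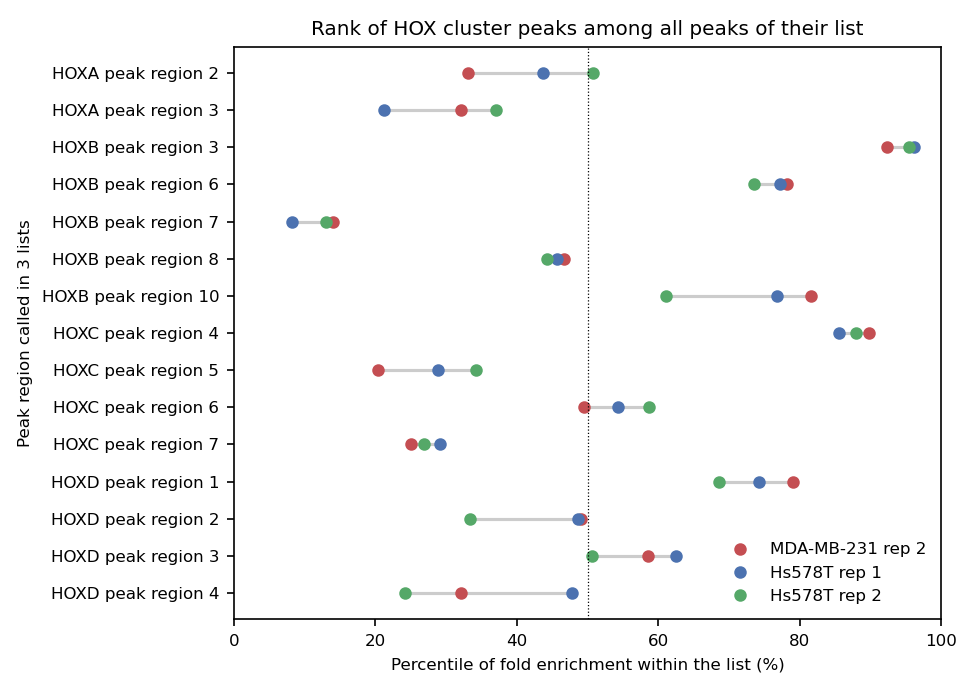
Percentile of fold enrichment within its own list (x axis, percent) for each of the 15 regions called in the 3 large lists, numbered along each chromosome within its cluster; points are lists and grey lines join them, with the list median dotted at 50. HOXB peak region 3, between HOXB1 and HOXB2, lies at 92.4 to 96.2 and HOXB peak region 7, at HOXB5, at 8.21 to 14.0.

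The centre 300 bases of the 15 shared regions were searched on both strands for motifs. None held the CTCF core consensus, which is in 0.261% of the 42909 regions of the genome covered in at least 2 lists. None held TGACTCA, against 18.6% of those regions, and 1, at HOXB9, held TGATTNAT, the site of HOX with PBX, against 5.91%. With 15 regions these shares say little, and a motif match is not a bound site.

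Borders were drawn where bases covered in at least 2 lists met an uncovered stretch of at least 5 kb, after joining pieces closer than that. There were 35 borders and 21 unmarked stretches, with 4 borders in HOXA, 13 in HOXB, 10 in HOXC and 8 in HOXD. Of the 39 start sites, 35 lay in unmarked stretches, those of HOXC5 and HOXD4 just inside the edge.

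Inside the windows, the posterior ends of HOXA, HOXB and HOXC were the longest unmarked stretches. Followed past the windows to the next covered base, these measured 184604, 126436 and 120407 bp, the stretch holding HOXC4 154962 bp and the one holding HOXD13 93426 bp. From HOXB9 on, 121486 bp to the end of the window were unmarked, holding HOXB13, a prostate and distal gut gene whose start was 25148, 24951 and 24921 bp from a peak. From the region between HOXA7 and HOXA9, 58965 bp were unmarked with HOXA9, HOXA10, HOXA11 and HOXA13. In HOXC, 70165 bp held HOXC13, HOXC12, HOXC11 and HOXC10, with HOXC13 39519, 50060 and 50165 bp from a peak.

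In HOXD, HOXD13 lay in 23542 unmarked bp before the window's end, and HOXD12, HOXD11, HOXD10, HOXD9 and HOXD8 in 42654 bp between the region beside HOXD13 and one inside HOXD3. The canonical HOXD3 start lay in 34057 unmarked bp between HOXD4 and HOXD1.

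Canonical starts of anterior and middle genes, and of HOXC9, lay in unmarked stretches too. That does not make each of these genes unmarked. The HOXC5 promoter was marked just past the border, and HOXC4 and HOXC9 at their alternative starts. HOXB3 and HOXC6 were marked at an alternative start in MDA-MB-231 replicate 2 only. HOXA2, a hindbrain gene, lay in 42063 bp, and HOXA4, HOXA5, HOXA6, HOXA3 and HOXA7 shared 45058 bp. In HOXB, HOXB1 lay in 21749 bp, HOXB2 in 8900 bp, HOXB4 in 36970 bp, HOXB3 in 5544 bp, and HOXB7 with HOXB8 in 19822 bp. In HOXC, HOXC9 lay in 8529 bp, HOXC8 in 11334 bp, HOXC6 with HOXC5 in 14578 bp, and HOXC4 in 42288 bp.

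The edges of the large lists could be matched at most borders. At 30 of 35 borders each large list had an edge within 3 kb, and the spread of the edges had a median of 180 bp (21 to 1044 bp), within 500 bp at 23 of them. At least 2 lists cover the base at each border by definition, so the count of 30 mainly shows whether the remaining large list had an edge nearby. Each border is by its definition the middle edge where 3 lists have one, so the direction of the offsets carries no information. The border beside HOXD4, 56 bp past its start, had its edge at an offset of 1 bp in MDA-MB-231 replicate 2 and of 0 and -71 bp in the Hs578T pair. At the alternative HOXC4 start, MDA-MB-231 replicate 2 reached 880 bp further out than Hs578T replicate 1.

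**Figure D5:**
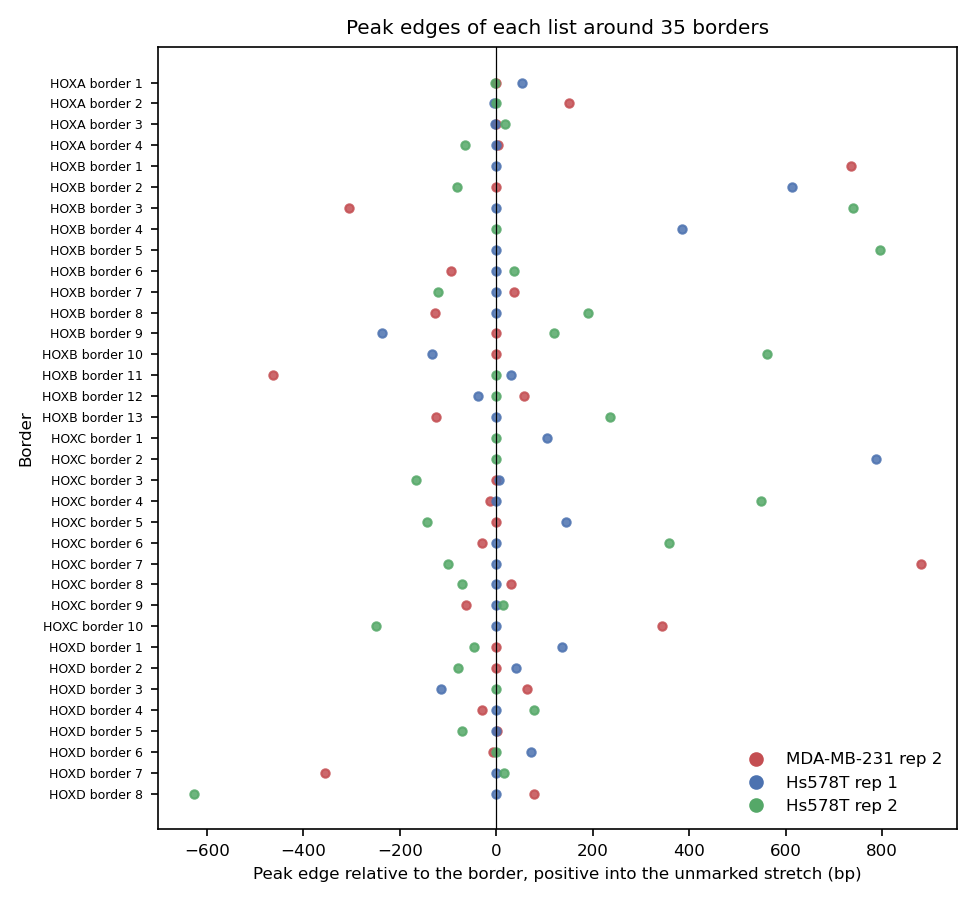
Offset in bp of each large list's peak edge from each of the 35 borders (x axis, positive into the unmarked stretch), with a row for each border, numbered along each chromosome within its cluster. With 3 lists the middle edge defines 0, so points on both sides of it follow from the definition and only the spread is to be read; the widest offset is 880 bp outward in MDA-MB-231 replicate 2 at HOXC border 7, the alternative HOXC4 start.

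Of the 35 borders, 2 (5.71%) had the CTCF core consensus within 1 kb on either strand, against 0.736% of 2 kb windows of the genome. Both were edges of the same short region between HOXA7 and HOXA9 and met the same motif, so they are 1 site. The motif lay 12 bp outside the border, on the HOXA9 side, and in no peak. The windows held 3 such motifs in all, the others being in HOXB at 3951 and 36058 bp from a border. Only exact matches were counted, so borders and clusters without a match may still hold CTCF sites. The 250 bases around the HOXA motif (hg38, chr7:27161019-27161268, plus strand, motif in capitals) had 112 bp inside the MDA-MB-231 replicate 2 peak and 108 and 43 bp inside those of Hs578T, all before the motif.
HOXA7 to HOXA9 border: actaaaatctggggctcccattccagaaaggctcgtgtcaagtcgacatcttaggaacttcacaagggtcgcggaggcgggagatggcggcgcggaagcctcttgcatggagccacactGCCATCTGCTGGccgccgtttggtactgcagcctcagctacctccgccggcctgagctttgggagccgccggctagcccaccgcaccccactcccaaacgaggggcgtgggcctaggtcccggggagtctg

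Of 70 other genes with a start site in the windows, 5 had a marked promoter in at least 2 lists, all of them beside a region already described: 3 of 31 lncRNA genes, against 25.7% of all such genes, 2 of 8 microRNA genes, against 18.4%, and 0 of 5 protein-coding genes. They were HOXC-AS2, HAGLR at the HOXD1 start, ENSG00000273046 at the alternative HOXC4 start, and the microRNA genes MIR615 and MIR7704. The long noncoding RNAs HOTAIR, which acts with Polycomb, HOTTIP, which acts with the WDR5 complex, and HOTAIRM1 were marked in no list, nor were the protein-coding EVX2, PRAC1 and PRAC2.

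The miR-196 and miR-10 families are known to target HOX messages, and mature forms of the clusters' microRNAs are shown with the seed, bases 2 to 8, in capitals (RefSeq, GRCh38.p14). miR-196a from HOXB and HOXC and miR-196b from HOXA share the seed AGGUAGU, while those of miR-10a and miR-615 are each different.
miR-196a-5p: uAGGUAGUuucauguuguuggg
miR-196b-5p: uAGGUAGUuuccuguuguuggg
miR-10a-5p: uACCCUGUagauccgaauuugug
miR-615-3p: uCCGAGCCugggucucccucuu

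The hairpins of miR-196a, miR-196b, miR-10a and miR-10b lay outside every peak. Distances were measured from the middle of each hairpin. The middle of miR-10b was 1248, 1249 and 1320 bp from the HOXD4 peak in MDA-MB-231 replicate 2 and the Hs578T replicates 1 and 2. That of miR-196b was 8391, 8395 and 8460 bp from the region between HOXA7 and HOXA9. The miR-615 hairpin, inside HOXC5, lay wholly in the MDA-MB-231 replicate 2 peak and outside those of Hs578T, with its middle 255 and 504 bp away.

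Known partners and regulators of HOX genes were read against the 57.7% of all protein-coding promoters marked in at least 2 lists. The TALE cofactors, at 66.7% of 9 genes, lay near that share, and the Polycomb (95%), trithorax and demethylase (91.7%) and CTCF and cohesin genes (100%) above it. The 6 marked TALE cofactors were so in each large list, with MEIS2 at 18.3-, 16.6- and 14.4-fold, while MEIS1, MEIS3 and PKNOX2 were marked in none. Of 20 Polycomb genes 19 were marked, including BMI1, a subunit of Polycomb repressive complex 1, at 11.2-, 11.9- and 9.22-fold, with PHC2 marked in MDA-MB-231 replicate 2 only. Of 12 trithorax and demethylase genes 11 were marked, including KDM6A, a lysine 27 demethylase, at 7.87-, 7.17- and 6.38-fold, and KMT2C was not. All 8 CTCF and cohesin genes were marked in each large list.

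Genes that act upstream in the embryo were less complete. Of 9 retinoic acid receptor and CDX genes, RARG, RXRA and RXRB were marked in each large list, and CDX1, CDX2, CDX4, RARA, RARB and RXRG in none. Of 33 other homeobox genes that lie in clusters or pairs, 8 (24.2%) were marked in at least 2 lists, with DLX4 at 6.63-, 8.93- and 6.29-fold and EN2 at 6.84-, 5.85- and 4.48-fold. That share lay within the Wilson interval of the HOX genes and under the 57.7% of all genes.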

How the data were processed

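The authors trimmed reads with Trimmomatic, aligned them to hg38 with Bowtie2 and called peaks with MACS2 after subtracting input signal, then took out blacklisted regions with bedtools, per the submitters' processing notes and the study's methods. Versions, thresholds and the peak mode are not given in the sources used here. Each deposited list has 9 columns, the form of MACS2 broad peaks, and holds a score, the fold enrichment as a ratio to background, and the −log10 of the p-value and q-value, as the authors deposited them. Lists were called per library. No reads were used.

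Peaks on chromosomes 1 to 22 and X were read with Python 3.11.15 and NumPy 2.4.6, and no peak passed a chromosome end of the reference genome. Start sites came from GENCODE release 44 and motifs were searched in hg38. Of 39 HOX genes, 20 matched the RefSeq promoter table. Members, gene lists and rules were chosen with earlier results of these data known. Named were the HOX genes, of which 1 is not reported here by name, other genes of the windows, and members of fixed lists in alphabetical order. No test was made. Counts were compared with all protein-coding genes, and alternatives were other windows, flanks, gaps and thresholds, merged peaks, and each replicate left out. Scripts were checked on simulated data.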

Additional observations from a re-analysis of the deposited data

How the results depend on the processing

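Of 92 alternatives over 11 results, 78 kept within their allowed range and 14 moved out of it. For the line means that range was the SD of the 2 lists. In MDA-MB-231 it was so wide that 0 and 7 promoters both counted as within range of 3.5. Leaving out a replicate of the other line could not change a line mean. The 78 is therefore no measure of stability. The strongest 50% of each list by score gave 2 HOX promoters in at least 2 lists, 1.5 per list in Hs578T, 0 bp covered in HOXA, 2650 bp in HOXC, 3086 bp in HOXD, 13867.5 bp over the clusters per Hs578T list and 14 borders; fewer peaks enter by construction. Taking 50 kb of flank gave 2653 bp in HOXA, 23892 bp in HOXB and 41206 bp per Hs578T list. In Hs578T, whose SD was 0, the count of promoters was 9 with 2.5 kb windows, 8 with any basic start site and 5 with at least 500 bp covered. GC- and CpG-rich promoters, an alternative chosen after seeing the data, gave 2.

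Leaving out each replicate in turn gave 6 HOX promoters throughout in at least 2 lists and in Hs578T, and 0 to 7 in MDA-MB-231, where the list left in decided the value: 7 without replicate 1 and 0 without replicate 2. The same 6 promoters were marked in each large list, so the count in at least 2 lists could not change. The bases covered per list were 0 to 23587 in MDA-MB-231 and 24778 to 25935 in Hs578T, and in at least 2 lists 937 to 1013 bp in HOXA, 8322 to 10491 in HOXB, 3664 to 5025 in HOXC and 4644 to 5859 in HOXD. Borders were 30 to 35 and those with a CTCF motif 2.

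No paired analysis was possible because no result comes from a test. Peak lists give no depth, and a promoter without a peak is where the mark did not pass the caller's threshold. Without libraries of untreated cells, nothing here bears on TWEAK.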
